A study of Mus musculus with 18 samples.

Results

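The genes described here encode nuclear subunits of the 5 oxidative phosphorylation (OXPHOS) complexes. They were chosen by gene symbol alone: the Nduf, Sdh, Uqcr, Cyc1, Cox5 to Cox8 and Atp5 genes, without Ndufa4 and Ndufa4l2. The rule found 78 genes among the 14804 genes of the deposited tables, of which 36 belong to complex I, 4 to complex II, 9 to complex III, 14 to complex IV and 15 to ATP synthase. All 78 were in the table for embryonic stem cells (ESCs), 76 in that for trophoblast stem cells (TSCs, without Cox7b2 and Cox8c) and 77 in that for extra-embryonic endoderm stem (XEN) cells (without Cox8c). Mitochondrially encoded subunits were not analysed here.

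These mouse cells, culture models of the epiblast (ESCs), trophectoderm (TSCs) and primitive endoderm (XEN), were grown at 20% oxygen (normoxia) or spent 2 or 7 days at 2% oxygen (hypoxia). Each condition was sequenced as bulk RNA from 2 biological replicates, so that every cell type had 6 libraries, of 18 altogether. The ESCs were of the line E14, grown on gelatin without feeders, the TSCs were grown on feeder cells, and the XEN cells were grown on gelatin in a medium partly conditioned on embryonic fibroblasts. The labels name no line for the TSCs and XEN cells, and by the labels the groups of a cell type differ in oxygen and time. The question was how the transcripts of the respiratory machinery stood on day 2 (acute) and day 7 (prolonged) of hypoxia in each cell type.

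OXPHOS couples the oxidation of nutrients to the making of ATP in the inner mitochondrial membrane. Complexes I and II pass electrons from NADH and succinate to ubiquinone, complex III passes them to cytochrome c, and complex IV passes them to oxygen, while proton pumping drives ATP synthase. Early embryonic cells are known to use glycolysis beside OXPHOS, and low oxygen is known to shift many cells towards glycolysis.

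The tables hold TPM (transcripts scaled to a common total of 1000000 in each library) that the authors had divided by the whole span of each gene, introns included. Levels are therefore given here as exon-length TPM, recomputed from the reads behind the TPM and the summed exon length, so that genes can be set side by side. Fold changes, tests and counts of libraries that lay above or below use the deposited values, as log2(TPM + 0.5). The reads recovered over the genes of the tables summed to between 35592641 and 75204029 per library, and whole reads were recovered for every subunit in the tables. Reads of the subunits made up 0.66% to 1.04% of these sums. Reads outside the genes of the tables are not known here. Of the 78 genes, 21 overlap another protein-coding gene and 5 have an annotated pseudogene named after them, so reads of these could be split or shared. Differential expression (DE) was called where limma gave a p of at most 0.1 after Benjamini-Hochberg adjustment and the fold change was over 1.5. Because RNA was taken from whole cultures, fewer cells of a type and less RNA per cell cannot be told apart.

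Several factors are known to act on the promoters of OXPHOS genes, among them NRF1, the ETS factor GABP and YY1, and the hypoxia-inducible factors bind a short core sequence. Of the 78 genes, 65 matched a RefSeq promoter by symbol (build GRCm38.p6, from 250 bases before to 50 after the start of the gene). Motifs were searched on both strands, and the background is the share of 27025 genes with a promoter in the table. The full NRF1 palindrome, whose letters are the capitals in the sequences that follow, was found in 5 of 65 subunits (7.69%) against 1.07% of all genes, and its core GCATGCGC, which lies within the palindrome, in 10 (15.4%) against 3.05%. The ETS motif CCGGAAG was found in 16 (24.6%) against 9.93%, and the YY1 motif AAGATGGC in 9 (13.8%) against 3.19%. The hypoxia response element core ACGTG was found in 15 (23.1%) against 21.8%, and the TATA box TATAAA in 6 (9.23%) against 15.7%. These are all 6 motifs that were searched, and such matches describe letters in a window, not binding. The 5 palindromes are shown because the search found the full motif there, with 10 bases on either side, on the strand of the gene, with the palindrome in capitals.
Atp5g2: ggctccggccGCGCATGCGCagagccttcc
Atp5k: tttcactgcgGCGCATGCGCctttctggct
Cox6a1: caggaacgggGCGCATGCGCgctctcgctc
Ndufa11: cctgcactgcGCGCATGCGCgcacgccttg
Uqcrc1: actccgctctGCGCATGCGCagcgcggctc

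The stretches lie at chr15:102671070-102671099 (minus strand) for Atp5g2, chr5:108434430-108434459 (minus) for Atp5k, chr5:115349101-115349130 (minus) for Cox6a1, chr17:56717692-56717721 (plus) for Ndufa11 and chr9:108936668-108936697 (plus) for Uqcrc1. The palindrome began 42, 50, 162 and 60 bases upstream of the RefSeq start in Atp5g2, Atp5k, Cox6a1 and Ndufa11, and 30 bases downstream of it in Uqcrc1. The GENCODE starts are at 102672352 for Atp5g2 and 108434448 for Atp5k. By these the stretch of Atp5g2 lies within the gene, and that of Atp5k spans the start. These 5 genes encode a membrane-rotor subunit of ATP synthase, a small membrane subunit of ATP synthase, a complex IV subunit, a complex I accessory subunit and a core protein of complex III.

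In normoxia the subunits were among the more abundant transcripts of all 3 cell types. The median exon-length TPM of the subunits was 163.5 (ESCs), 137.3 (TSCs) and 176.8 (XEN cells), against 17.4, 21.9 and 26.7 for all genes of each table. Above 100 exon-length TPM lay 61 of 78 subunits for ESCs, 50 of 76 for TSCs and 58 of 77 for XEN cells. The tables were normalized separately, so levels are set side by side between cell types without a test.

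Atp5b, the catalytic beta subunit of ATP synthase, and Atp5a1, its alpha subunit, took the top ranks in ESCs, with normoxic exon-length TPM of 1832 and 1871 for Atp5b and 1610 and 1678 for Atp5a1. In TSCs the order was Atp5b (1166 and 1074), Cox6a1 (969 and 1021) and Atp5a1 (964 and 990), where Atp5b lay above the others and the libraries of Cox6a1 and Atp5a1 overlapped. In XEN cells Cox8a, a small subunit of complex IV, was highest at 3022 and 3422 exon-length TPM, above Atp5b at 1564 and 1470. Its normoxic level was 897 and 962 in ESCs and 866 and 842 in TSCs. At the other end, Ndufb2, an accessory subunit of complex I, had between 3.38 and 6.46 exon-length TPM in the 6 normoxic libraries, and Atp5l, a membrane subunit of ATP synthase with 2 annotated pseudogenes, between 3.86 and 10.1. Their summed exon lengths, 5628 and 6443 bases, are long beside the median of the subunits (1631), which lowers these levels. In ESC normoxia replicate 1, Ndufb2 had 226 reads, while Ndufs5, with 237 reads and an exon length of 860 bases, had 28.9 exon-length TPM.

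**Figure D1:**
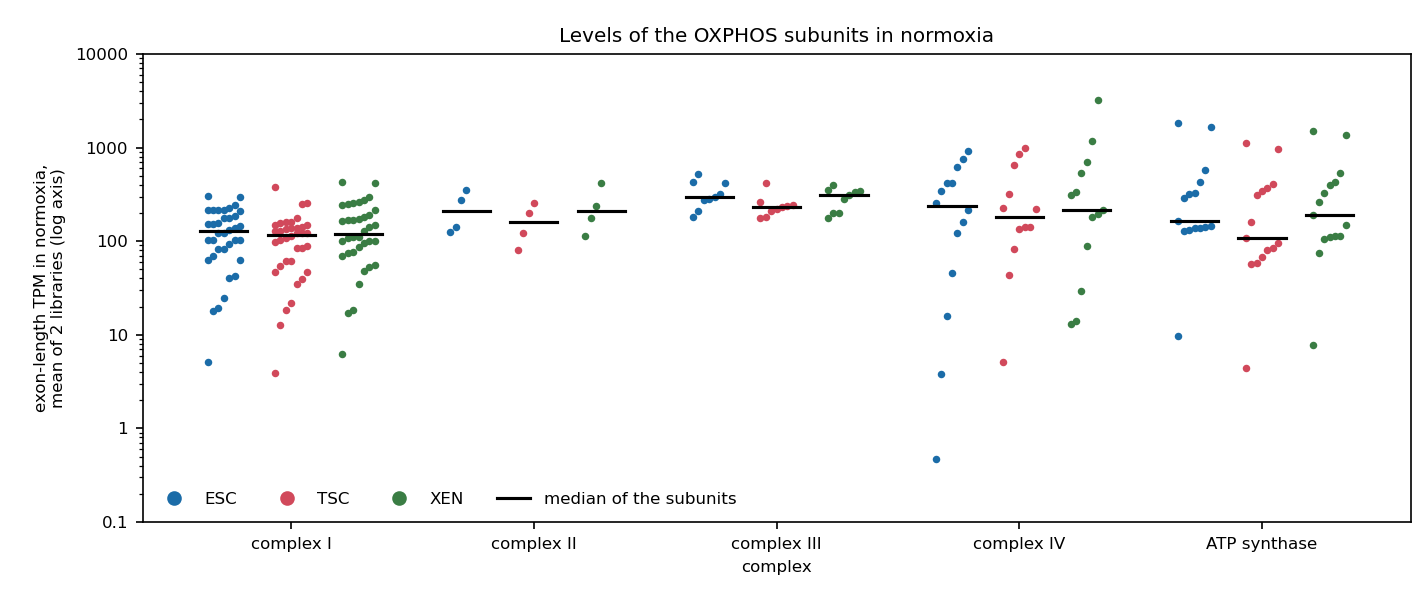
Normoxic level of every OXPHOS subunit in exon-length TPM (vertical log axis, mean of 2 libraries) by complex and cell type, with the median of the subunits as a bar. Most subunits lie above 100 exon-length TPM, and the highest point of complex IV in XEN cells is Cox8a.

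Several subunits of complex IV exist as paralogs with different tissue patterns, and the widely expressed form was the higher in the pairs given here. Cox6b1 had normoxic exon-length TPM of 570 and 664 (ESCs), 651 and 667 (TSCs) and 745 and 664 (XEN cells). Its paralog Cox6b2, known mainly from testis, had 44.5 and 47.7 (ESCs), 40.4 and 46.9 (TSCs) and 27.3 and 31.1 (XEN cells). Likewise Cox7a2 lay between 182 and 405 in these 6 libraries, Cox7a2l, a factor of respiratory supercomplexes, between 124 and 221, and Cox7a1, the heart and muscle form, between 4.42 and 18.03. Of the genes for the c-ring of ATP synthase, which encode the same mature protein, Atp5g3 was highest (306 to 477 exon-length TPM), followed by Atp5g2 (101 to 171) and Atp5g1 (51.6 to 147). Within each cell type these normoxic libraries did not overlap between the 3 genes in exon-length TPM. The order of Atp5g2 and Atp5g1 rested on the exon lengths used, 1675 and 4912 bases. In normoxic ESCs Atp5g1 had more reads (6077 and 9448) than Atp5g2 (2581 and 3739). The same held in TSCs (2743 and 3469 against 1831 and 2238). Cox8c, a form known from testis, had 2.29 and 5.35 in ESCs, where 10 and 32 reads stood behind these levels. Cox6a2 and Cox8b were not analysed here.

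Cox6b2 is among the subunits furthest from normoxia in TSCs and XEN cells, so the 120 bases upstream of it and of its paralog Cox6b1 are shown; they were chosen after the values were seen. They lie on chromosome 7 of GRCm38.p6 on the minus strand, at chr7:30626152-30626271 for Cox6b1 and chr7:4753095-4753214 for Cox6b2, upstream of the RefSeq and GENCODE starts. Neither stretch holds any of the 6 motifs, so no letter is in capitals; the ETS motif was found elsewhere in the RefSeq window of Cox6b1.
Cox6b1: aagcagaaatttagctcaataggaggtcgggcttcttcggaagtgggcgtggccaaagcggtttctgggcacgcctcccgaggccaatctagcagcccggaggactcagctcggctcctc
Cox6b2: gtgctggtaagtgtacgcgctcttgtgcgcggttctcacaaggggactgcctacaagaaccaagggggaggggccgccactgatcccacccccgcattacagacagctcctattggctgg

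In hypoxia no subunit was DE by limma in any of the 9 comparisons, and none was DE by voom on the recovered reads. By limma, 0% (ESCs), 0.2% (TSCs) and 0% (XEN cells) of all genes were DE on day 2, and 0.758%, 0.385% and 0.11% on day 7. From day 2 to day 7 it was 0.179%, 16.2% and 0.0367%. The paper, by edgeR at the same thresholds, reported many more DE genes over normoxia in each cell type on both days. Outside TSCs from day 2 to day 7, so few genes were called here that the absence of DE subunits says little about them. The difference between cell types was not tested. On day 2 the median log2 fold change of the subunits over normoxia was -0.07 (ESCs), 0.25 (TSCs) and -0.33 (XEN cells), against 0.01, 0.07 and -0.01 for all genes tested. The subunits had a positive log2 fold change for 21 of 77 genes (ESCs), 64 of 76 (TSCs) and 2 of 76 (XEN cells). For all genes the positive share was 51.90%, 56.88% and 48.93%. On day 7 the medians were -0.03, 0.11 and -0.16, against 0.02, -0.18 and -0.03 for all genes. With 2 libraries against 2, an exact permutation test of a single value cannot go below a two-sided p of 0.333, so these medians are given with the range of the libraries and no test.

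**Figure D2:**
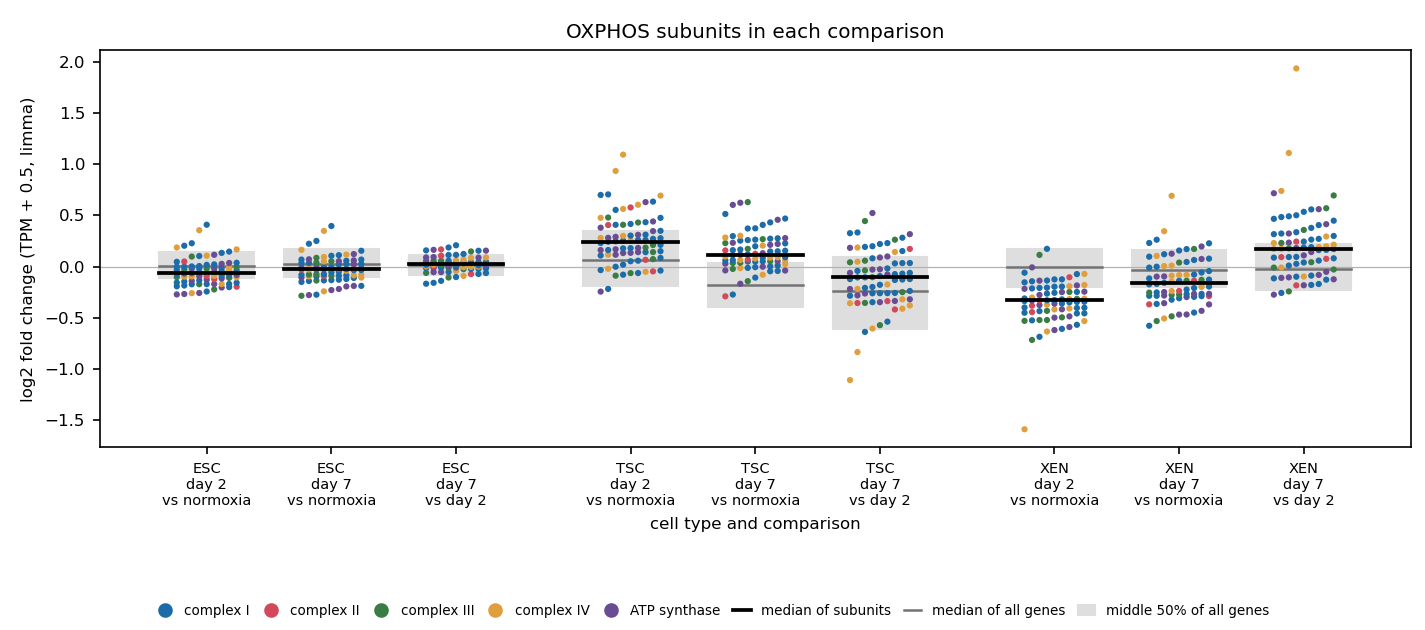
Log2 fold change of each tested OXPHOS subunit (points, coloured by complex) in the 3 comparisons of each cell type, on the log2(TPM + 0.5) scale. Black bars mark the median of the subunits, grey bars and boxes the median and the middle 50% of all genes tested; the subunits of XEN cells on day 2 lie almost all below 0, with a median of -0.33.

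The library medians show how far replicates stood apart. Taken as the median over the subunits of the difference from the normoxia mean, the XEN libraries were at -0.46 and -0.20 on day 2 and at -0.23 and -0.11 on day 7, with both normoxic libraries within 0.01 of 0. The TSC libraries were at 0.06 and -0.06 in normoxia, then 0.22 and 0.18 (day 2), then -0.01 and 0.28 (day 7). The ESC libraries were at -0.06 and 0.06 in normoxia, then 0.04 and -0.13 (day 2), then -0.03 and -0.05 (day 7). Thus both day 2 libraries lay outside the normoxic range in TSCs and in XEN cells, in opposite directions, and the ESC libraries overlapped. The pooled SD between replicates of this median was 0.08 (ESCs), 0.13 (TSCs) and 0.12 (XEN cells).

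**Figure D3:**
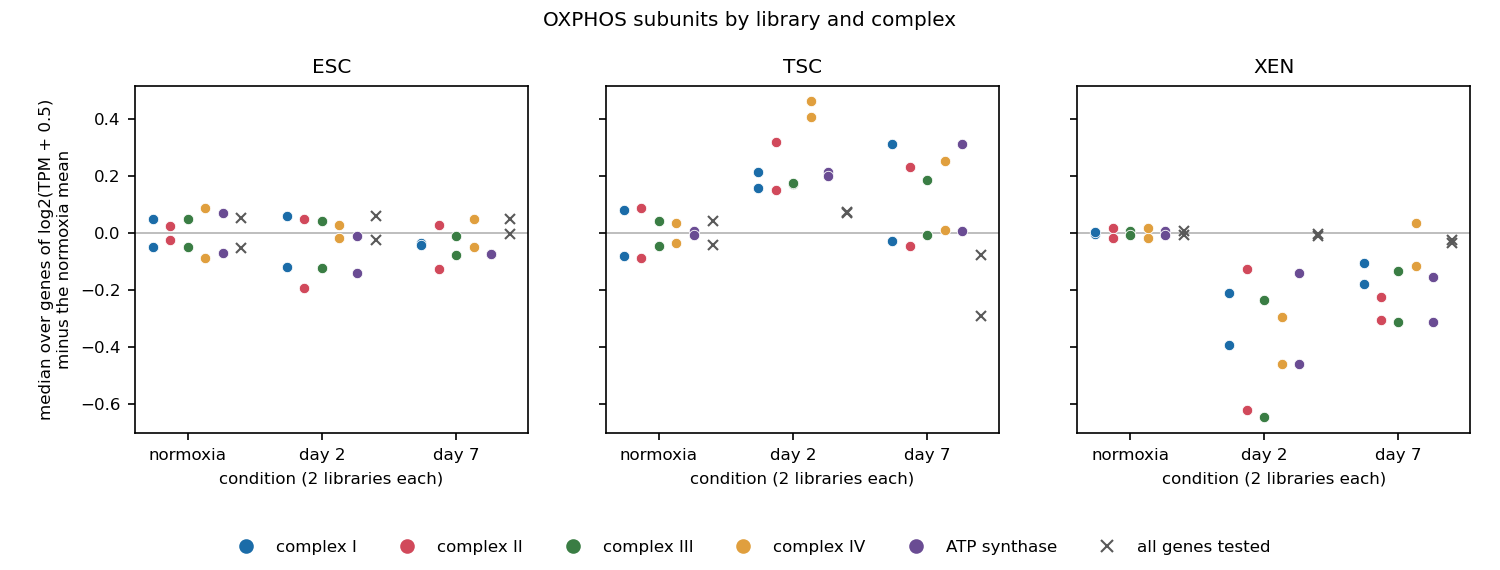
Median over the subunits of each complex of log2(TPM + 0.5) minus the normoxia mean, 1 point per library, with crosses for all genes tested. Both day 2 libraries of XEN cells lie below normoxia for all 5 complexes, and those of TSCs lie above both normoxic libraries for all 5.

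In XEN cells on day 2 the medians of all 5 complexes lay below 0. The median log2 fold change was -0.32 for complex I (35 of 36 subunits negative), -0.36 for complex II (4 of 4), -0.50 for complex III (8 of 9), -0.35 for complex IV (12 of 12) and -0.33 for ATP synthase (15 of 15). Both day 2 libraries lay below both normoxic libraries for 60 of 76 subunits, where 21.4% of all genes did so, and above them for 0, where 19.6% did. By limma 0 of 76 subunits were DE (0% of all genes), and 22 had an unadjusted p under 0.05, all of them lower, against 7.77% of all genes. By voom 0 were DE (0% of all genes) and 30 had an unadjusted p under 0.05, against 9.12% of all genes by voom. The exceptions in sign were Ndufa12 (0.17) and Uqcrb (0.11).

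The size of this difference depended on day 2 replicate 1. Without that library the median was -0.20 and 72 of 76 subunits were negative. Without day 2 replicate 2 the median was -0.46 and 71 of 76 were negative. Fewer subunits had an unadjusted p under 0.05 without day 2 replicate 1, or without either normoxic library, than with all libraries. More had one without day 2 replicate 2. A group held 1 library in each of these fits, so their counts are not given.

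Among the subunits of complex IV in XEN cells, Cox6b2 stood furthest from normoxia, with 27.3 and 31.1 exon-length TPM in normoxia, then 7.78 and 11.3 (day 2), then 58.8 and 23.5 (day 7). Both day 2 libraries lay well below normoxia, and the day 7 libraries lay on either side of normoxia. The log2 fold change was -1.59 ± 0.41 (SE) on day 2 (adjusted p = 0.439 by limma) and 1.94 ± 0.41 from day 2 to day 7 (adjusted p = 0.373). Cox7c, another small nuclear subunit of complex IV, had 190 and 201 exon-length TPM in normoxia, then 119 and 128 (day 2), then 207 and 213 (day 7). Its replicates were close and its day 2 libraries did not overlap with either of the other conditions. It had the lowest adjusted p on day 2 (0.365, log2 fold change -0.64 ± 0.13) and shared the lowest from day 2 to day 7 with other subunits, Cox6b2 among them (0.373, 0.74 ± 0.13).

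Cox8a showed the widest gap between replicates in XEN cells, with 2193 and 2547 exon-length TPM on day 2 and 8637 and 3137 on day 7. Its log2 fold change was -0.42 on day 2, 0.69 on day 7 and 1.11 from day 2 to day 7, with an SE of 0.43. The sum over the subunits in day 7 replicate 1 was 24126 exon-length TPM with Cox8a and 15490 without it, against 18547 and 18298 in normoxia without it. The low paralogs Cox6b2, Cox7a1 (16.6 and 7.95) and Cox7b2 (18.5 and 8.94) were also higher in day 7 replicate 1 than in replicate 2.

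**Figure D4:**
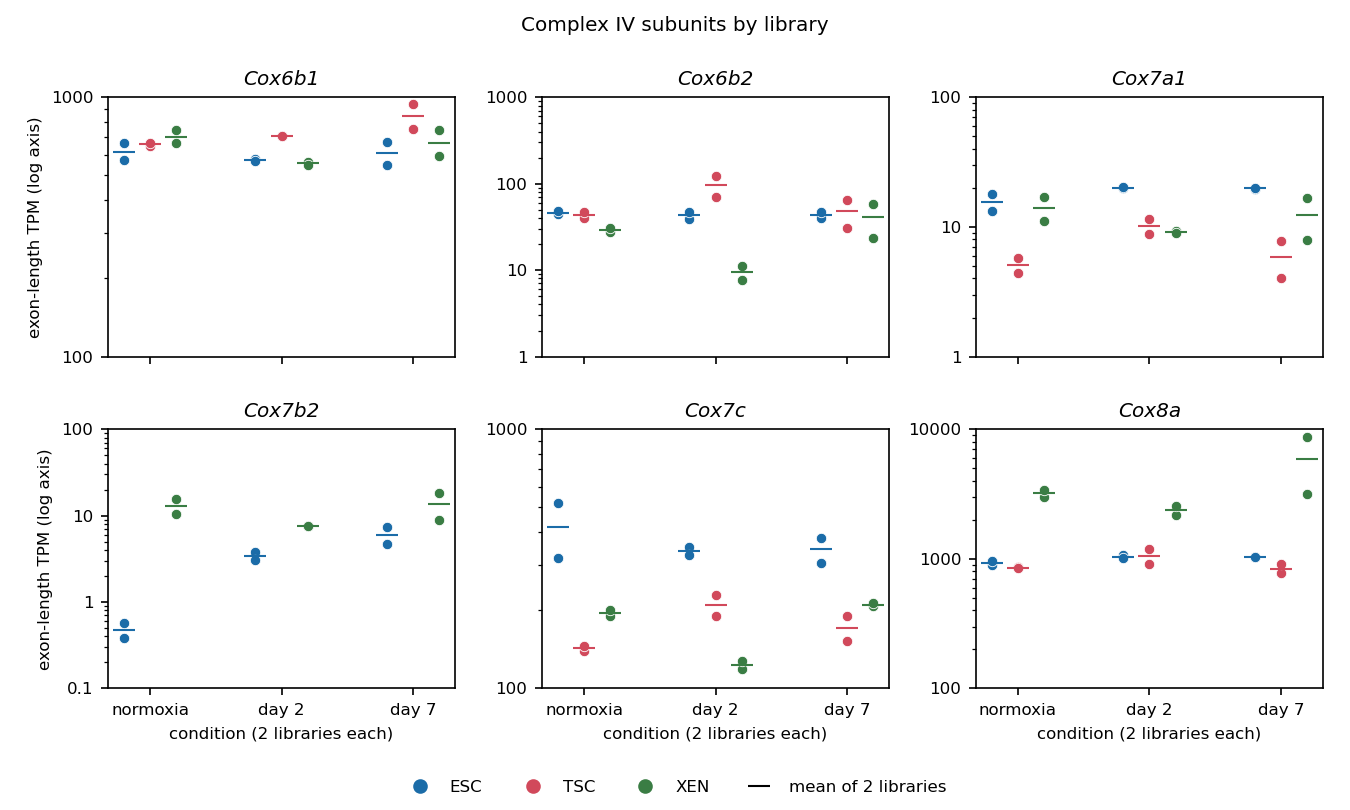
Exon-length TPM (vertical log axes) of 6 complex IV subunits in each of the 2 libraries per condition and cell type, with the mean as a short bar. In XEN cells Cox6b2 is lowest on day 2 at 7.78 and 11.3, and Cox8a in 1 day 7 library reaches 8637.

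In complex III of XEN cells, Uqcrfs1, the Rieske iron-sulfur protein, had 323 and 305 exon-length TPM in normoxia, then 156 and 225 (day 2), then 241 and 209 (day 7). All 4 hypoxic libraries lay below both normoxic ones. Its log2 fold change was -0.72 ± 0.20 on day 2 (adjusted p = 0.471) and -0.49 on day 7. Cyc1, the cytochrome c1 heme protein, had 350 and 317 in normoxia, then 179 and 290 (day 2), then 206 and 257 (day 7). Its log2 fold changes were -0.52 and -0.53, with all hypoxic libraries below the normoxic ones. Uqcrc1, a core protein, was at -0.25 and -0.28. Uqcrh, the hinge protein at the cytochrome c docking site, was at -0.43 and -0.26. Uqcrq, a small subunit, had 176 and 176 in normoxia, then 100 and 144 (day 2), then 211 and 188 (day 7), below normoxia on day 2 and above it on day 7 (0.17).

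In complex I of XEN cells, Ndufs1, the large iron-sulfur subunit of the electron-input arm, had 105 and 95.9 exon-length TPM in normoxia, then 80.5 and 77.2 (day 2), then 63.2 and 71.1 (day 7). Its values were lower at each later time, with no overlap between conditions. The log2 fold change was -0.32 on day 2, -0.58 ± 0.15 on day 7 (adjusted p = 0.378, the lowest of the subunits on that day) and -0.26 from day 2 to day 7. Ndufv1, which binds NADH, was at -0.45 on day 2 and -0.29 on day 7. Ndufb6, a membrane-arm accessory subunit, had 181 and 163 in normoxia, then 77.9 and 139 (day 2), then 155 and 145 (day 7). Its day 2 replicates stood far apart, and its log2 fold change was -0.69 ± 0.26 (adjusted p = 0.597). Ndufa10, an accessory subunit, was at -0.35 on day 2, -0.45 on day 7 and -0.10 between them. Ndufa3 and Ndufb7, also accessory, were at 0.17 and 0.12 on day 7, with both libraries above normoxia.

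In complex II of XEN cells, Sdha, the flavoprotein that oxidises succinate, was at -0.10 on day 2, -0.29 on day 7 and -0.18 from day 2 to day 7. Sdhb, the iron-sulfur subunit, was at -0.38 on day 2 and -0.14 on day 7. In complex IV, Cox5a and Cox5b, which are nuclear subunits around the catalytic core, were at -0.41 and -0.30 on day 2 and at -0.51 and -0.09 on day 7. In ATP synthase, Atp5a1 had 1369 and 1338 exon-length TPM in normoxia, then 1024 and 1229 (day 2), then 957 and 1148 (day 7), and its log2 fold changes were -0.25 and -0.37. All 4 hypoxic libraries lay below normoxia. For Atp5b, with log2 fold changes of -0.14 and -0.25, the day 2 libraries (1242 and 1475) overlapped with normoxia.

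On day 7 in XEN cells 20 of 76 subunits had a positive log2 fold change (45.10% of all genes). Both libraries lay below normoxia for 44 subunits (23.9% of all genes) and above it for 6 (17.5%). By limma 0 were DE (0.11% of all genes) and 4 had an unadjusted p under 0.05 (9.01% of all genes), all lower: Ndufs1, Ndufa10, Atp5c1 and Uqcrfs1. With voom, 0 were DE (0.0551% of all genes) and 3 had an unadjusted p under 0.05 (8.69%). The medians by complex were -0.15, -0.26, -0.26, -0.08 and -0.27, in the order I to IV and ATP synthase. Between day 2 and day 7 the median was 0.18 (all genes -0.02) and 56 of 76 were positive (46.82% of all genes). Both day 7 libraries lay above both day 2 libraries for 28 subunits (21.7% of all genes) and below them for 3 (25.9%). By limma 0 were DE (0.0367% of all genes) and 10 had an unadjusted p under 0.05 (11.9%), all higher. By voom 0 were DE (0.0184% of all genes) and 12 had an unadjusted p under 0.05 (12.5%). Without day 2 replicate 1 this median was 0.04. Cytosolic ribosomal proteins were at 0.33 in the same comparison.

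Other short and abundant transcripts lay on the same side in XEN cells on day 2. The subunits are short, with a median exon length of 1631 bases against 4327 for all genes of the tables. Genes under 1000 bases had a median log2 fold change of -0.17 (205 genes, with 18 subunits at -0.40), and those of 4000 bases and over 0.02 (6140 genes, with 10 subunits at -0.29). Mitochondrial ribosomal proteins were at -0.17 (16 of 77 positive) and cytosolic ribosomal proteins at -0.22 (7 of 76 positive). In each of the 4 length classes examined the subunits lay below all genes of the class. The part of transcript length in the result was not tested. These classes and lists were chosen after the values were seen.

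TSCs on day 2 lay on the other side. The medians were 0.24 for complex I (30 of 36 subunits positive), 0.24 for complex II (3 of 4), 0.19 for complex III (7 of 9), 0.39 for complex IV (10 of 12) and 0.18 for ATP synthase (14 of 15). Both day 2 libraries lay above both normoxic ones for 45 of 76 subunits, where 30.6% of all genes did so, and below them for 2 (Ndufs5 and Uqcrc1), where 16.9% did. By limma 0 were DE (0.2% of all genes) and 11 had an unadjusted p under 0.05, a share near that of all genes (13.1%). All 11 were higher, and 6 of them were counted with complex IV, Cox7a2l among these. With median-ratio scaling 3 of 76 had an unadjusted p under 0.05. With voom, 0 were DE (0.272% of all genes) and 6 had an unadjusted p under 0.05 (14.2%).

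Cox6b2 had the largest difference here too, with 40.4 and 46.9 exon-length TPM in normoxia, then 123 and 69.5 (day 2), then 30.8 and 64.6 (day 7). Its log2 fold change was 1.10 ± 0.38 on day 2 (adjusted p = 0.315) and -1.11 ± 0.38 from day 2 to day 7 (adjusted p = 0.118). Cox7a1 had 5.70 and 4.42 in normoxia, then 11.5 and 8.80 (day 2), then 4.02 and 7.80 (day 7) (0.94 ± 0.34 on day 2, adjusted p = 0.328, and -0.84 from day 2 to day 7). Cox7a2l had 158 and 124, then 258 and 199, then 159 and 151 (0.69 ± 0.22 on day 2, adjusted p = 0.295). In these 3 genes both day 2 libraries lay above the other TSC libraries, while on day 7 those of Cox6b2 and Cox7a1 lay on either side of the normoxic pair and those of Cox7a2l close to it. Ndufa6, an accessory subunit of complex I, was at 0.71 ± 0.23 (adjusted p = 0.288), with 64.2 and 59.5 exon-length TPM in normoxia and 118 and 85.7 on day 2. Ndufv3, an accessory subunit of the NADH-binding module, was at 0.70 ± 0.22 (adjusted p = 0.283, the lowest of the subunits), with 45.0 and 63.1 in normoxia and 89.5 and 83.3 on day 2.

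A short list of core subunits, which does not hold every one of them, had an SE of 0.16 to 0.21 in TSCs. On day 2 the log2 fold changes of the listed genes were 0.43 for Uqcrfs1, 0.28 for Cox5a, 0.18 for Atp5a1, 0.17 for Atp5b, 0.16 for Ndufv1, 0.14 for Cyc1, 0.07 for Sdha, -0.03 for Ndufs1, -0.05 for Sdhb, -0.05 for Cox5b and -0.06 for Uqcrc1. Ndufs5, an accessory subunit of complex I, was at -0.22. On day 7 the same listed genes lay between -0.29 for Sdha and 0.13 for Sdhb. Sdha had 199 and 202 exon-length TPM in normoxia and 169 and 170 on day 7, and Ndufs1 39.5 and 38.7 in normoxia and 33.5 and 33.2 on day 7 (-0.27). The day 7 libraries of both lay below normoxia.

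On day 7 in TSCs the median over the subunits was 0.11, with 61 of 76 positive, while 28.03% of all genes were positive and their median was -0.18. Both libraries lay above normoxia for 15 subunits (8.98% of all genes) and below it for 3 (32.3%), which were Sdha, Ndufs1 and Atp5a1 (-0.04, whose libraries overlapped with normoxia in exon-length TPM). By limma 0 were DE (0.385% of all genes) and 2 had an unadjusted p under 0.05 (10.4%). By voom 0 were DE (0.2% of all genes) and 3 had an unadjusted p under 0.05 (9.06%). Those with an unadjusted p under 0.05 by limma were Uqcrq, with 185 and 168 exon-length TPM in normoxia and 223 and 359 on day 7 (0.63 ± 0.26, adjusted p = 0.468), and Atp5k, with 169 and 149 in normoxia and 205 and 313 on day 7 (0.62 ± 0.24, adjusted p = 0.438). In both, day 7 replicate 2 stood well above replicate 1. Ndufa2, an accessory subunit of complex I, was at 0.51.

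From day 2 to day 7 in TSCs, 2019 genes were DE (16.2% of all genes tested) and 0 of 76 subunits. The median over the subunits was -0.11 against -0.24 for all genes, and 25 of 76 were positive, where 31.24% of all genes were. Both libraries lay above for 8 subunits (14.3% of all genes) and below for 25 (44.9%), and 6 had an unadjusted p under 0.05 (27.9%), all lower. With voom, 0 were DE (15.6% of all genes) and 1 had an unadjusted p under 0.05 (26.8%). The lowest adjusted p was that of Uqcrfs1 (0.101, -0.57 ± 0.18), with 320 and 330 exon-length TPM on day 2 and 218 and 238 on day 7. Ndufv3 was at -0.64. Higher on day 7 were Atp5g1 (0.52), with 42.4 and 52.8 on day 2 and 58.4 and 86.6 on day 7, Atp5g3 (0.32) and Uqcrb (0.26), a subunit of the ubiquinone-binding part of complex III. The direction of this median rested on the scaling. With median-ratio scaling, which moved the median of all genes in TSCs from -0.18 to -0.00 on day 7 and from -0.24 to 0.02 from day 2 to day 7, the subunits were at 0.31 on day 7 (74 of 76 positive) and at 0.17 from day 2 to day 7 (56 of 76 positive). Without day 7 replicate 1 the medians were 0.28 (69 of 76 positive) and 0.03 (41), and without day 7 replicate 2 they were -0.01 (34) and -0.24 (14).

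Levels of cell type markers differed between the TSC libraries. The 8 fibroblast markers summed to 1428 and 198 exon-length TPM in normoxia, then 165 and 772 (day 2), then 332 and 216 (day 7), and Col1a1 alone to 689 and 84.7, 65.8 and 409, and 113 and 75.4. The 5 TSC markers summed to 930 and 974, 935 and 1072, and 658 and 602, and the 4 measured markers of differentiated trophoblast (of 5 listed) to 5607 and 9420, 5560 and 4734, and 9785 and 8991. The log2 fold changes of single markers differed among themselves. On day 7 the median over the 5 TSC markers was -1.71, with Elf5 DE (-1.78) and Cdx2 at -1.80, and from day 2 to day 7 the DE ones were Elf5 (-2.30), Cdx2, Eomes and Gata3, all lower. The TSC marker Tfap2c went the other way, at 0.12 on day 7 and 0.27 from day 2 to day 7. Prl3d1, a marker of giant cells, was at 2.07 on day 7 and was DE from day 2 to day 7 (2.15), and Ascl2 was DE lower (-1.16). Prl2c2, also of differentiated trophoblast, was at -0.47 on day 7. Of the 4 ESC markers measured in TSCs, 3 were above normoxia on day 2 with an unadjusted p under 0.05 (Nanog at 1.07), and Klf4 was at -0.19. On day 7 the median of these ESC markers was -0.69 with Sox2 DE (-2.20). Without normoxia replicate 1 and day 2 replicate 2, an alternative chosen after the values were seen, the median over the subunits on day 2 was 0.31, with 63 of 76 positive, and Cox6b2 was DE (1.42), where 6.06% of all genes were DE. On day 7 it was 0.17 with Atp5e DE (3.12% of all genes), and from day 2 to day 7 it was -0.13 with 4 of 76 DE (24.4% of all genes), which were Cox6b2, Cox7a1, Cox7a2l and Ndufa6. Normoxia and day 2 held 1 library each in that alternative, and a lone library was assumed to vary like the day 7 pair. No conclusion is therefore drawn from its DE calls, and only its medians and log2 fold changes are to be read. With all TSC libraries, cytosolic ribosomal proteins were at 0.37 on day 2 and mitochondrial ones at -0.05, and genes under 1000 bases at 0.22. Beyond leaving those libraries out, the part of these markers and of transcript length was not tested.

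In ESCs on both days the medians lay close to 0. On day 2 the median was -0.07 with 21 of 77 positive (51.90% of all genes). Both libraries lay above normoxia for 8 subunits (16.4% of all genes) and below it for 7 (14.4%), 0 were DE by limma (0% of all genes) and 1 had an unadjusted p under 0.05 (5.05%). On day 7 the median was -0.03 with 27 of 77 positive (54.48% of all genes). On that day 6 subunits lay above (23% of all genes) and 7 below (17.5%), 0 were DE (0.758%) and 1 had an unadjusted p under 0.05 (8.04%). Between day 2 and day 7 the median was 0.02 with 50 of 77 positive (53.48% of all genes). In that comparison 5 subunits lay above (15.2%) and 5 below (8.8%), 0 were DE (0.179%) and 0 had an unadjusted p under 0.05 (4.26%). Leaving out 1 library turned each of these directions. Without day 2 replicate 2, 47 of 77 were positive on day 2 (median 0.04) and 29 from day 2 to day 7 (-0.05). Without normoxia replicate 2, 39 were positive on day 2 (0.006) and 52 on day 7 (0.04). By voom 0 were DE in all 3 (0%, 0.905% and 0.212% of all genes), and 1, 1 and 0 had an unadjusted p under 0.05 (5.86%, 8.54% and 4.76% of all genes). The complex medians lay between -0.12 and 0.05.

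Ndufv3 was the subunit with the lowest adjusted p in ESCs in both comparisons with normoxia. Its exon-length TPM were 62.9 and 63.4 in normoxia, then 72.0 and 97.7 (day 2), then 79.5 and 86.2 (day 7). All 4 hypoxic libraries lay above both normoxic ones, by 0.41 ± 0.16 on day 2 (adjusted p = 0.970) and 0.40 ± 0.16 on day 7 (adjusted p = 0.591). Cox7a1 had 13.3 and 18.03 in normoxia, then 19.8 and 20.2 (day 2), then 19.6 and 20.03 (day 7) (0.36 and 0.35). Cox8a was at 0.17 and 0.16 and Ndufa6 at 0.23 on day 2, each with both libraries above normoxia.

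Below normoxia in ESCs were Ndufs1 (-0.20 on day 2 and -0.19 on day 7), Atp5l (-0.26 and -0.22), Uqcrh (-0.17 on day 2), Atp5g1 (-0.23 on day 7) and Atp5j, a stalk subunit of ATP synthase (-0.20 on day 7). Ndufs1 had 84.6 and 79.3 exon-length TPM in normoxia, then 75.8 and 66.5 (day 2), then 70.3 and 72.3 (day 7). From day 2 to day 7 the largest differences without overlap were Atp5c1 (0.09), Atp5o (0.09) and Cox7a2l (0.06) above, and Ndufa13 (-0.17), Ndufa6 (-0.16) and Cox6a1 (-0.09) below, which are subunits of ATP synthase, complex IV and complex I. The other listed core subunits lay on both sides of normoxia. On day 2 they ranged from -0.22 for Uqcrfs1 to 0.11 for Cox5b and on day 7 from -0.29 for Uqcrfs1 to 0.12 for Cox5b. Uqcrfs1 had 283 and 311 exon-length TPM in normoxia, then 327 and 197 (day 2), then 287 and 203 (day 7), so that replicate 2 alone was low at both times.

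Cox7b2, a paralog of the complex IV subunit Cox7b known from testis, was under the filter on low values in ESCs (TPM over 0.4 in at least 2 of 6 libraries), and it was picked out after its values were seen. It had 2 and 4 reads in normoxia, then 30 and 26 (day 2), then 36 and 41 (day 7), or 0.39 and 0.56, 3.83 and 3.08, and 4.63 and 7.37 exon-length TPM. All hypoxic libraries lay above the normoxic ones. With exon-length TPM it passed the filter, and by limma the day 2 log2 fold change was 2.02 ± 0.28 (adjusted p = 0.086) and that of day 7 was 2.71 ± 0.28 (adjusted p = 0.003), where 0.0376% and 1.03% of all genes were DE. With the deposited TPM and no filter the adjusted p were 0.975 and 0.428. In XEN cells it had between 7.51 and 18.5 exon-length TPM, and Cox7b had between 222 and 458 in the libraries of ESCs and XEN cells.

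**Figure D5:**
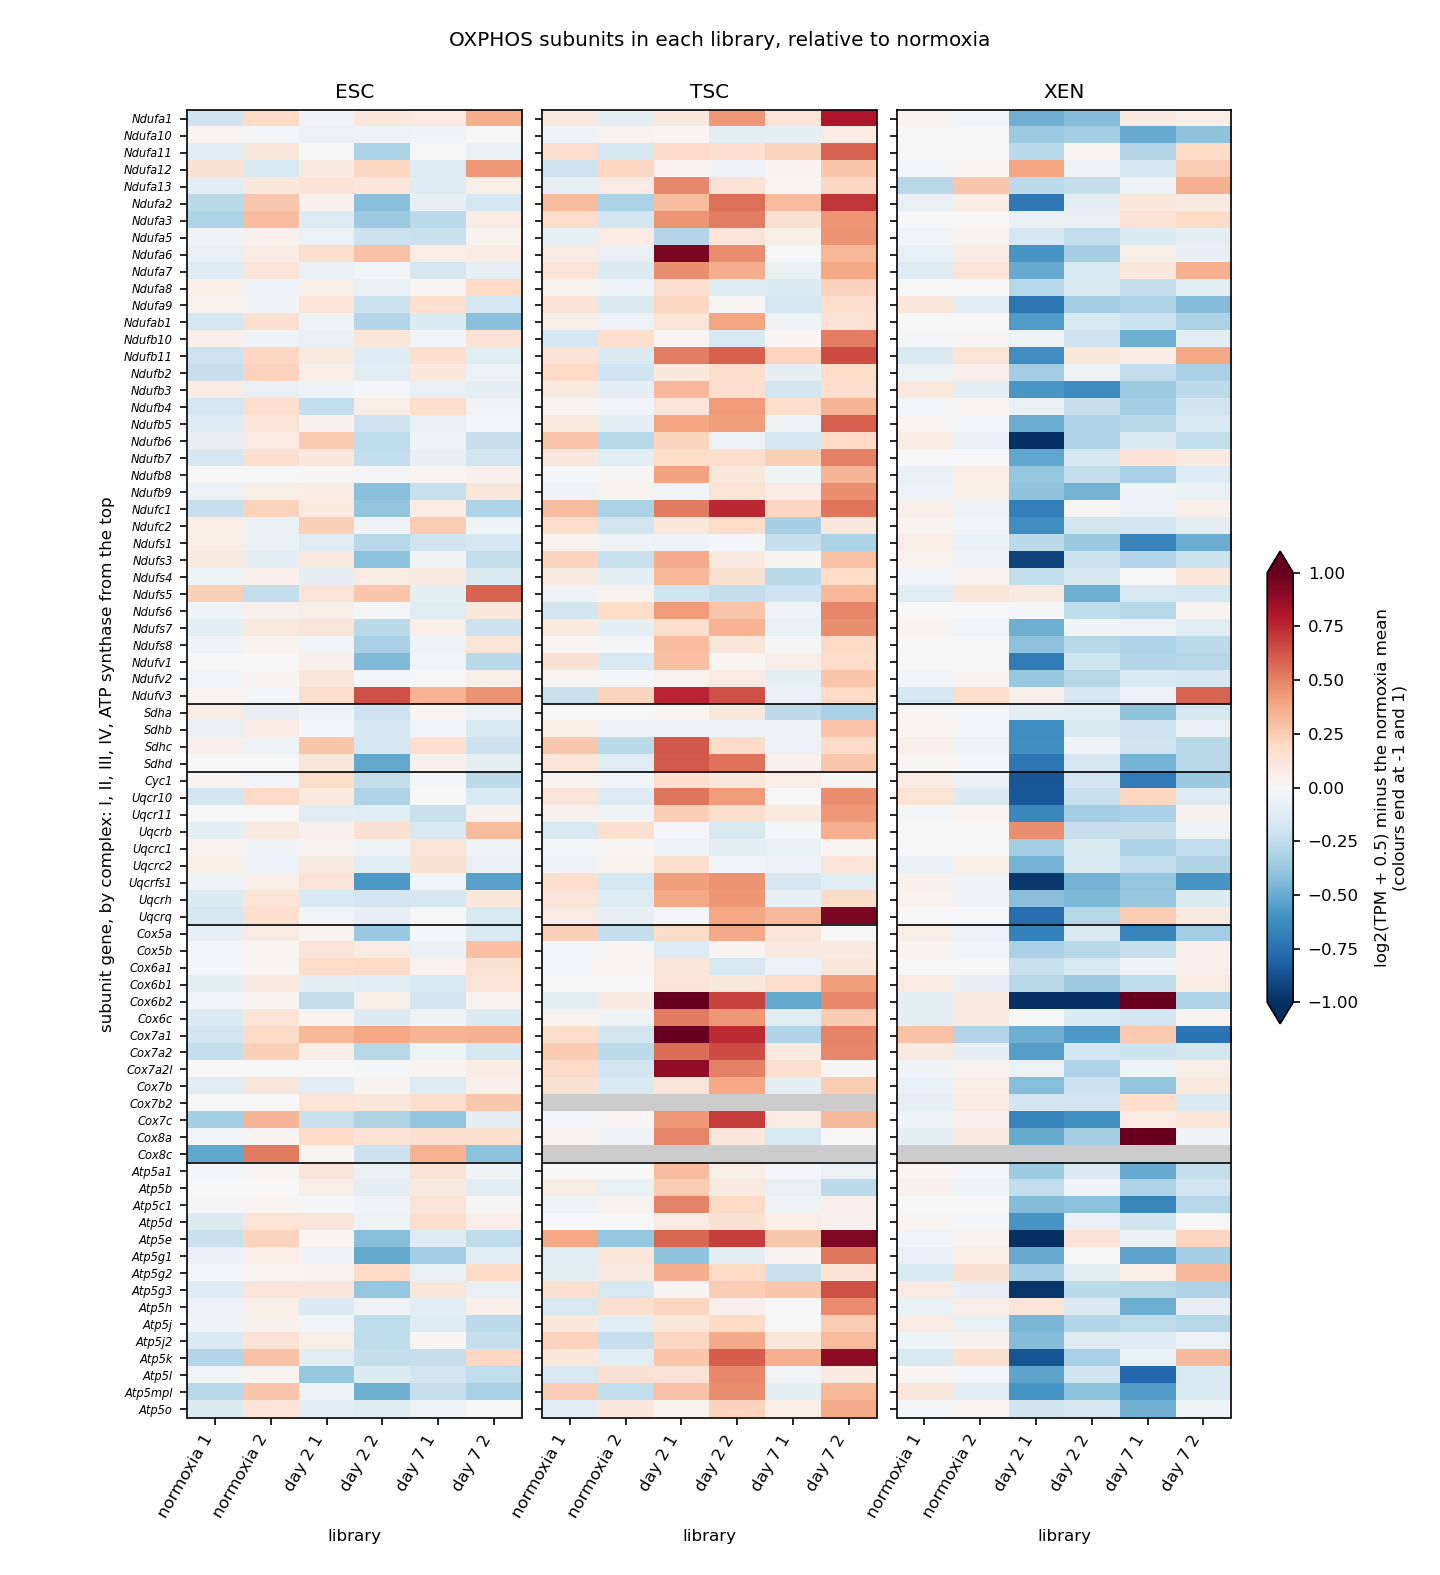
Log2(TPM + 0.5) of the OXPHOS subunits in each library minus the normoxia mean of its cell type, in rows by complex, with grey for a gene that is not in the table. XEN day 2 replicate 1 is low across most rows, with a median of -0.46.

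Other genes of the pathway were described by lists. Of 48 assembly factors, which build the complexes, 43 passed the filter in both ESCs and TSCs, as did 42 for XEN cells. None was DE in the comparisons with normoxia, where 0% to 0.758% of all genes were. At an unadjusted p under 0.05 were 1, 1, 3, 0, 3 and 3 (ESCs, TSCs, XEN cells, day 2 before day 7). For all genes this share was 5.05%, 8.04%, 13.1%, 10.4%, 7.77% and 9.01%. The median over the assembly factors on day 2 was -0.00 (ESCs), 0.13 (TSCs) and -0.24 (XEN cells). For XEN cells 5 of 42 were positive, against 48.93% of all genes. In TSCs between day 2 and day 7, 1 of 43 was DE, Foxred1 (-0.73, adjusted p = 0.061), where 16.2% of all genes were. Of 12 regulators of mitochondrial biogenesis, 11 were tested and 0 were DE in any comparison (0% to 16.2% of all genes). In XEN cells Esrra, a nuclear receptor, was at -0.65 on day 2 and -0.43 on day 7, and the coactivator Ppargc1b at -0.87 and -0.81, while Nrf1 was at 0.10 and -0.14, Gabpa at 0.15 and -0.10 and Yy1 at 0.27 and -0.43. Over the 11 regulators the XEN median was 0.10 on day 2 (7 positive) and -0.14 on day 7 (2 positive). Of all genes 48.93% and 45.10% were positive. Of the 7 subunits and partners that the rule leaves out, Ndufa4l2, a known target of hypoxia-inducible factors, was DE in ESCs on day 7 (3.66 ± 0.68, adjusted p = 0.081), with 6.43 and 3.43 exon-length TPM in normoxia, then 28.04 and 144 (day 2), then 93.5 and 42.3 (day 7). Its paralog Ndufa4 was at -0.13 and -0.18. Cox4i1, the large nuclear subunit of complex IV, had 742 and 715 exon-length TPM in normoxic XEN cells, 554 and 583 on day 2 and 618 and 608 on day 7, below normoxia in all 4 hypoxic libraries.

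The markers of each labelled cell type were present in all of its libraries. The ESC markers summed to between 4525 and 5090 exon-length TPM in the ESC libraries, the TSC markers to between 602 and 1072 in the TSC libraries and the XEN markers to between 2570 and 3100 in the XEN libraries.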

How the data were processed

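The deposited tables hold TPM per protein-coding gene, 1 table per cell type with 6 libraries. The authors trimmed reads (cutadapt 2.4), mapped them to mm10 (STAR 2.7.5a), counted them per gene, kept genes over a low CPM, and divided by the start-to-end length of each gene. The processing notes also list StringTie 2.0.6, featureCounts and edgeR 3.26.8. The strand setting of the counting is not given in the sources used here, so reads of overlapping genes cannot be told apart.

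Whole reads were recovered from the TPM steps (tolerance 0.05; 98.7% to 98.9% of all values came out whole) and divided by summed exon lengths (GENCODE, GRCm38) for levels between genes. Genes over 0.4 TPM in at least 2 of 6 libraries were fitted per cell type as log2(TPM + 0.5) with limma 3.58.1 (R 4.3.3; empirical Bayes with trend), p-values adjusted over all genes tested; fold changes on this scale understate those of low genes. DE meant at most 0.1 for the adjusted p, with over 1.5 for the fold. The fit was tried on counts simulated from the ESC libraries with large planted changes on day 7. Smaller changes, and the spread of TSCs and XEN cells, were not simulated. Tables were summarised with Python 3.11.15, pandas 2.3.3 and numpy 2.4.6 and drawn with matplotlib 3.10.9. Alternatives were other pseudocounts, filters, scaling, gene lengths, thresholds and variance models, voom on recovered reads, a replicate block and left-out libraries. P-values of the main fit rest on the spread between 2 replicates per condition, pooled over the conditions of a cell type and moderated over all genes tested.

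Named were, per comparison, up to 3 subunits with the largest positive and 3 with the largest negative difference among those whose libraries did not overlap, a short list of core subunits (1 is not reported here) and tissue isoforms; others were chosen after their values were seen, as were the length classes, ribosomal lists, motifs and sequences. The members and lists were chosen with earlier results of these data known.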

Additional observations from a re-analysis of the deposited data

Results flagged for a closer look

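On day 2 of hypoxia some values lay on opposite sides of normoxia in 2 cell types, with every library of each on its own side. The differences between cell types were not tested, since the tables were normalized separately. The median log2 fold change over the subunits was 0.2451 in TSCs and -0.3323 in XEN cells. Cox6b2 was at 1.096 in TSCs and -1.5938 in XEN cells, and Uqcrfs1 at 0.431 and -0.7187. Cox7a1 was at 0.3555 in ESCs and 0.9361 in TSCs against -0.5339 in XEN cells, and Ndufa6 at 0.2281 in ESCs and 0.7062 in TSCs against -0.4595 in XEN cells. Uqcrh was at -0.1733 in ESCs and 0.4088 in TSCs. None of these subunits was DE within a cell type.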

How the results depend on the processing

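Under up to 12 alternatives, and after removing single libraries, the absence of DE subunits and the direction of the XEN day 2 median held except as given here. With exon-length TPM 1 subunit was DE in ESCs on day 2 and 1 on day 7 (Cox7b2), with 0.0376% and 1.03% of all genes. Without TSC normoxia replicate 1 and day 2 replicate 2, chosen after the values were seen, some subunits were DE in TSCs. Normoxia and day 2 were then 1 library each, so no conclusion is drawn from these calls. With only the 4 libraries compared, 1 (Cox6b2) was DE in TSCs from day 2 to day 7, with 17.7% of all genes. With 1 library left out, the count of DE subunits ranged from 0 to 1 in ESCs on day 2 (Ndufv3, without day 2 replicate 1, with 4.02% of all genes), from 0 to 1 in TSCs from day 2 to day 7 (Cox6b2, without normoxia replicate 1, normoxia replicate 2 or day 2 replicate 2, with 17.7%, 17.7% and 12.2%) and from 0 to 2 in XEN cells from day 2 to day 7 (Cox6b2 and Cox8a, without day 7 replicate 2, with 0.762%); a lone library was assumed to vary like the other groups. The median over the subunits ranged from -0.16 to 0.041 in ESCs on day 2, -0.10 to 0.039 in ESCs on day 7, -0.052 to 0.10 in ESCs from day 2 to day 7, 0.15 to 0.31 in TSCs on day 2, -0.015 to 0.28 in TSCs on day 7, -0.24 to 0.035 in TSCs from day 2 to day 7, -0.46 to -0.20 in XEN cells on day 2, -0.23 to -0.11 in XEN cells on day 7 and 0.037 to 0.26 in XEN cells from day 2 to day 7. In TSCs it was 0.31 on day 7 and 0.17 from day 2 to day 7 with median-ratio scaling, and 0.25 and 0.03 with voom. With the replicate number as a block, 0 subunits were DE in all 9 comparisons; the labels do not say that a number pairs libraries, and deviations of same-numbered libraries correlated over all genes between -0.46 and 0.27. Of 2392 values of the named subunits over all alternatives, 82 had another sign than the main fit, and none of these had a main log2 fold change over 0.24 in size. The cause was not tested. With median-ratio scaling, the sign differed for Atp5b (-0.014), Cox5b (-0.0091), Ndufs1 (-0.0076) and Sdhb (-0.018) in ESCs from day 2 to day 7, for Sdha (-0.022) in TSCs on day 2, for Atp5a1 (0.16), Atp5b (0.029), Uqcrc1 (0.17) and Uqcrfs1 (0.053) in TSCs on day 7, for Atp5a1 (0.065), Cox5a (0.064), Cyc1 (0.18), Ndufs1 (0.040) and Ndufv1 (0.24) in TSCs from day 2 to day 7, for Cyc1 (0.0068) in XEN cells from day 2 to day 7. With exon-length TPM, the sign differed for Atp5b (-0.0007) and Sdhb (-0.005) in ESCs from day 2 to day 7, for Atp5a1 (0.014) and Uqcrc1 (0.029) in TSCs on day 7, for Ndufv1 (0.020) in TSCs from day 2 to day 7, for Cyc1 (0.017) in XEN cells from day 2 to day 7. Without TSC normoxia replicate 1 and day 2 replicate 2, the sign differed for Sdhb (0.011) in TSCs on day 2, for Uqcrfs1 (0.030) in TSCs on day 7. With voom, the sign differed for Atp5a1 (0.10) and Uqcrc1 (0.12) in TSCs on day 7, for Cyc1 (0.035) and Ndufv1 (0.097) in TSCs from day 2 to day 7, for Cyc1 (0.051) and Uqcrc1 (0.033) in XEN cells from day 2 to day 7. Leaving out 1 library at a time gave both signs for these core subunits, from the lowest to the highest value. For ESCs on day 2, it was -0.069 to 0.12 for Atp5a1, -0.098 to 0.062 for Atp5b, -0.37 to 0.031 for Cox5a, -0.24 to 0.18 for Cyc1, -0.44 to 0.051 for Ndufv1, -0.046 to 0.036 for Uqcrc1 and -0.58 to 0.13 for Uqcrfs1. For ESCs on day 7, it was -0.040 to 0.14 for Atp5a1, -0.12 to 0.093 for Atp5b, -0.065 to 0.30 for Cox5b, -0.10 to 0.067 for Sdha and -0.035 to 0.14 for Uqcrc1. For ESCs from day 2 to day 7, it was -0.069 to 0.12 for Atp5a1, -0.099 to 0.11 for Atp5b, -0.12 to 0.29 for Cox5a, -0.17 to 0.19 for Cox5b, -0.32 to 0.10 for Cyc1, -0.069 to 0.093 for Ndufs1, -0.20 to 0.29 for Ndufv1, -0.073 to 0.076 for Sdhb, -0.030 to 0.14 for Uqcrc1 and -0.41 to 0.29 for Uqcrfs1. For TSCs on day 2, it was -0.13 to 0.024 for Cox5b and -0.11 to 0.011 for Sdhb. For TSCs on day 7, it was -0.18 to 0.30 for Cox5a, -0.036 to 0.27 for Ndufv1, -0.032 to 0.28 for Sdhb, -0.069 to 0.023 for Uqcrc1 and -0.32 to 0.030 for Uqcrfs1. For TSCs from day 2 to day 7, it was -0.18 to 0.099 for Ndufv1 and -0.0047 to 0.087 for Uqcrc1. For XEN cells on day 7, it was -0.23 to 0.048 for Cox5b. For XEN cells from day 2 to day 7, it was -0.26 to 0.0091 for Atp5a1, -0.36 to 0.17 for Cox5a, -0.34 to 0.32 for Cyc1, -0.087 to 0.41 for Ndufv1, -0.13 to 0.072 for Uqcrc1 and -0.016 to 0.48 for Uqcrfs1.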
